A study of Mus musculus with 24 samples.

Results

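The MHC class I presentation genes were followed across 12 groups of mouse embryonic stem cells that differed in the CTCF protein they carried. The set was 10 genes listed by symbol, out of 55291 in the deposited gene tables: the heavy chain genes H2-K1, H2-D1, H2-Q7 and H2-T23, the light chain gene B2m, the peptide transporter genes Tap1 and Tap2, the loading factor gene Tapbp, and the immunoproteasome genes Psmb8 and Psmb9. Total RNA was sequenced from 24 libraries, 2 per group. All groups descend from the E14Tg2a line (strain 129/Ola), in which the endogenous CTCF carries an auxin-inducible degron and is degraded when indole-3-acetic acid (IAA) is added. In 9 groups, named R339Q, R342C, S354F, K365T, R377C, R377H, Q418R, R448Q and H455R after the substitution, a mutant Ctcf transgene was switched on with doxycycline while the endogenous protein was degraded. WT IAA cells carried the wild-type transgene line but received IAA without doxycycline. WT ID cells, which expressed the wild-type transgene under IAA and doxycycline, were the reference for all of these groups. WT untreated cells received neither agent. The doses were 500 µM IAA and 1 µg/ml doxycycline, given for 2 days in feeder-free medium with serum, leukemia inhibitory factor, CHIR99021 and PD0325901.

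Class I molecules display peptides from inside the cell to cytotoxic T cells. The proteasome cuts proteins into peptides, the TAP transporter carries the peptides into the endoplasmic reticulum, and tapasin holds an empty heavy chain and its light chain, beta-2 microglobulin, next to the transporter until a peptide binds. Interferon raises most of these genes in differentiated cells, whereas embryonic stem cells are known for very low class I at their surface. CTCF binds DNA through zinc fingers and, with cohesin, sets the ends of chromatin loops.

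Each mutant is a separate cell line, so the substitution and the line cannot be told apart, and no label states that both replicates came from different cultures. The p-values therefore reflect only how far these samples differ, which may be technical. In bulk RNA, fewer expressing cells and less RNA per cell cannot be told apart. The libraries held 27.8 to 77.1 M gene-assigned reads (M stands for 1000 × 1000). The 8 embryonic stem cell markers examined summed to 8183 to 10304 TPM in every library, where TPM is a length-scaled share of the library. Of 8 leukocyte markers, 5 were under 1 TPM in all 24 libraries, among them Ptprc, Csf1r, Itgam and Lyz2. Cd68 (31.4 to 92.9 TPM) and Cd3e (3.64 to 22.9 TPM) made up most of the list's sum, which ran from 44.8 TPM in R448Q to 104 TPM in R342C. Of 8 fibroblast markers 5 were under 1 TPM throughout, with sums of 3.52 to 11.9 TPM. Marker sums of endothelium (65.6 to 190 TPM), primitive endoderm (7.89 to 38.3 TPM), trophectoderm (76.0 to 232 TPM) and neural cells (63.7 to 228 TPM) also varied between groups, and their part in the results was not tested. Ctcf itself, whose value adds endogenous and transgene reads together, averaged 20431 normalized counts in R448Q cells and 16851 in H455R cells, against 10196 in WT ID cells. Over the 22 libraries other than the untreated ones Ctcf ran from 8262 to 20661. By limma at an adjusted p under 0.05 it was higher in 4 and lower in 1 of the 10 comparisons with WT ID. The part of the Ctcf level in the results was not tested. In 5 mutant lines whole chromosomes were shifted by more than 0.2 against WT ID in the median log2 fold change of their genes: chromosome 11 in R377H (0.54) and K365T (0.38), chromosome 8 in H455R (0.47), R448Q (0.45) and K365T (0.20), chromosome 1 in R448Q (0.47), K365T (0.27) and Q418R (0.24), chromosome 3 in R448Q (0.45), and chromosome 6 in Q418R (-0.46). The 10 genes lie on chromosomes 17 and 2, whose medians stayed between -0.07 and 0.04.

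Where class I and processing genes differed between a mutant line and WT ID cells, they were more often higher than lower, but more than 1 in 2 gene and line combinations were not called. Of the 10 genes, 8 had a mean of at least 10 normalized counts (reads divided by a size factor per library) and were tested with limma. H2-T23 and Psmb8 were too low. Over the 9 mutant lines, which all share the WT ID libraries as reference, 26 of 72 gene and line combinations were higher, 8 were lower and 38 were not called at an adjusted p under 0.05, the threshold used throughout. Among all 18713 genes tested, 12.3% of combinations were higher and 11.5% were lower. H2-Q7 rose in 7 lines, B2m and Psmb9 in 5 each, H2-K1 and Tap1 in 3 each, H2-D1 in 2 and Tap2 in 1. Tapbp fell in 6 lines, and Tap1 and Psmb9 fell in R448Q.

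**Figure D1:**
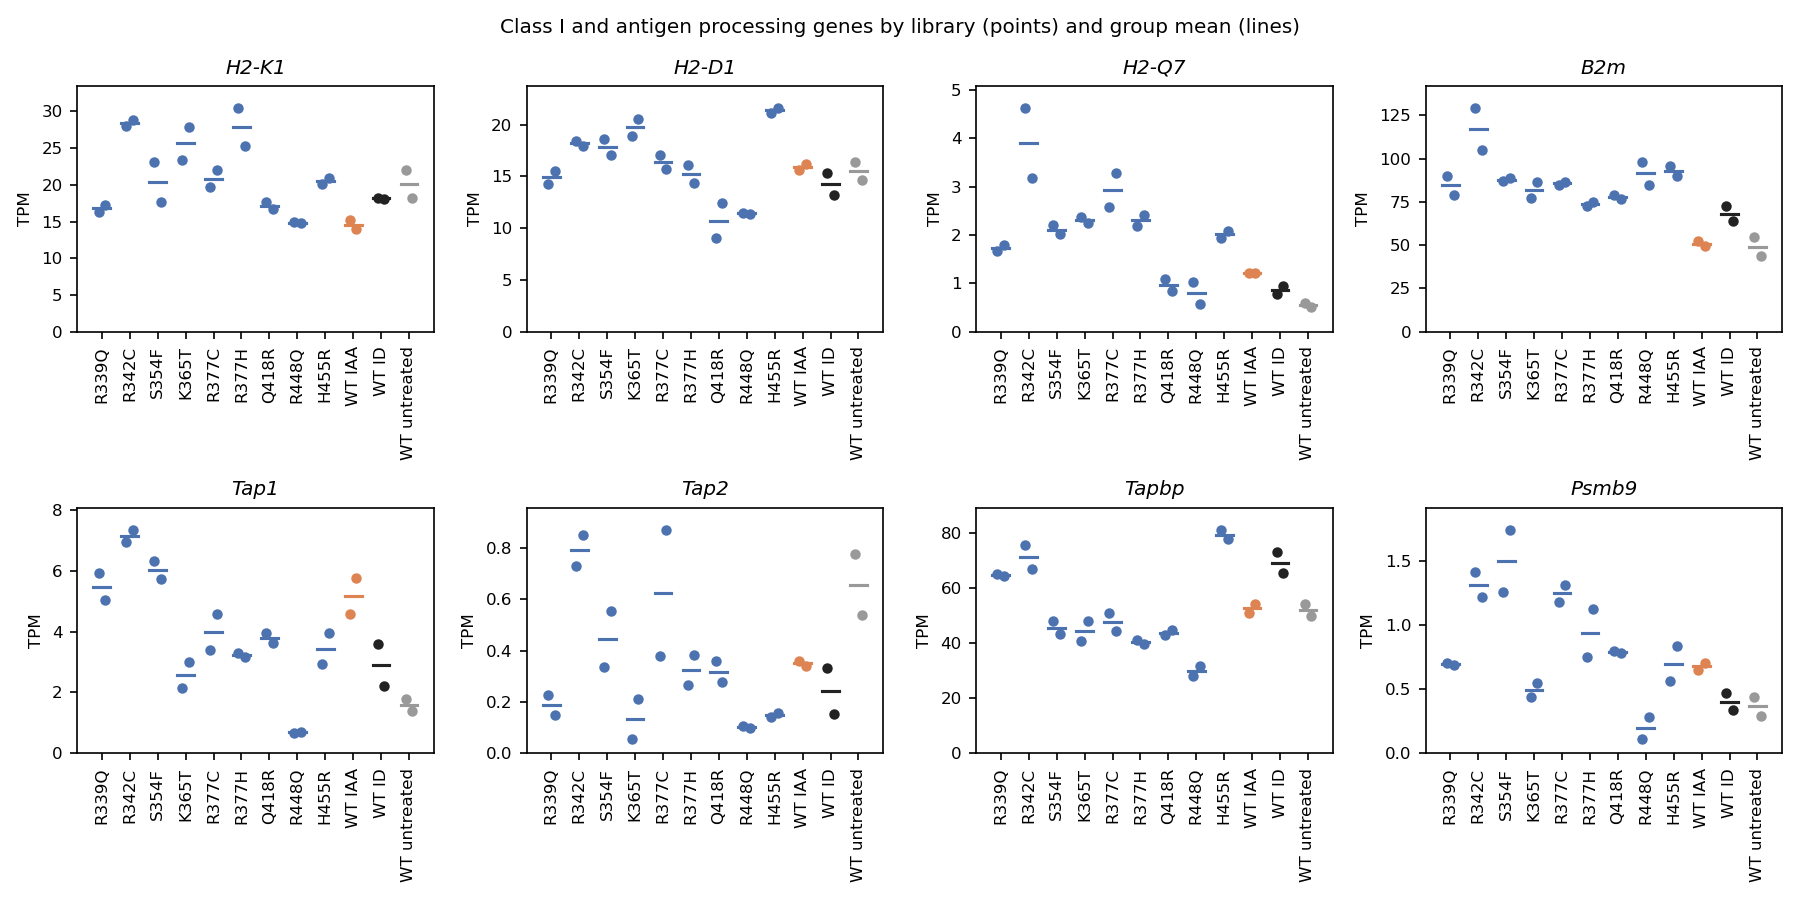
TPM (vertical axis, linear from 0) of the 8 tested genes in each library (points) with the group mean (line), for 9 mutant lines (blue), WT IAA (orange), WT ID (black) and WT untreated cells (grey). Tap1 in R448Q, at 0.677 and 0.699 TPM, is the lowest pair of its panel, and B2m is lowest in the WT untreated and WT IAA libraries.

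The lines differed in how many of the 8 genes were called. In R342C 6 were called, all higher, where 23.3% of all genes were called and 10% were higher. In S354F it was 5, of which 4 were higher (5.49% of all genes) and 1 lower (4.31%), with 9.8% called in either direction. K365T also had 5, of which 4 were higher (17.7% of all genes) and 1 lower (14.2%), with 32% called. R377H had 3 higher (14.4% of all genes) and 1 lower (10.7%), with 25.1% called. R448Q had 1 higher (22.8% of all genes) and 3 lower (23.1%), with 45.8% called. R377C had 2 higher (4.67% of all genes) and 1 lower (3.43%), with 8.09% called. H455R had 3, all higher (12.6% of all genes, with 10.5% lower and 23.1% called). R339Q had 2, both higher (11.8% of all genes, with 9.7% lower and 21.5% called), and Q418R had 1 higher (11.2% of all genes) and 1 lower (13.8%), with 25% called. In R339Q, Q418R and R448Q the share of the 8 genes called was thus close to that of all genes. The median log2 fold change of the 8 genes ran from -0.51 in R448Q to 0.95 in R342C, while that of all genes lay between -0.03 and 0.01.

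**Figure D2:**
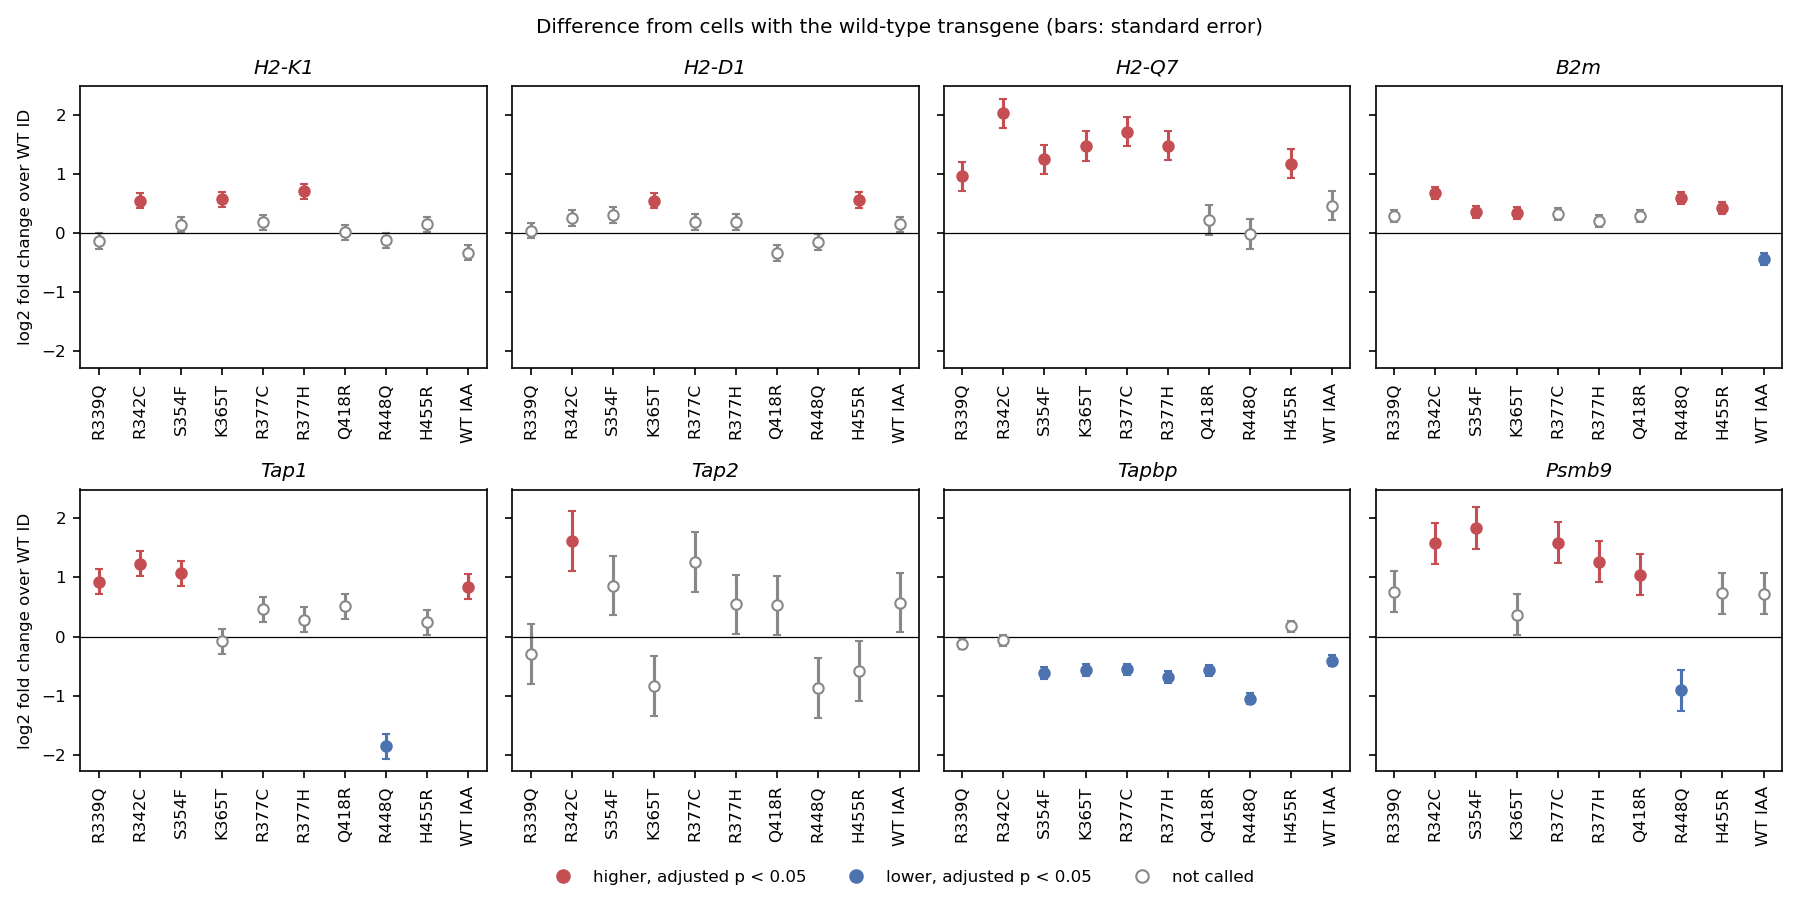
Log2 fold change over WT ID (vertical axis, same scale in every panel) of the 8 tested genes in the 9 mutant lines and in WT IAA cells, with the standard error from limma. Filled red points were higher and filled blue points lower at an adjusted p under 0.05. H2-Q7 is red in 7 of the 9 mutant lines and Tapbp is blue in 6.

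The heavy chain genes lie on chromosome 17 (mm10, coordinates from GENCODE M21). H2-K1 (ENSMUSG00000061232) spans chr17:33996017-34000347 on the minus strand, H2-D1 chr17:35262730-35267499 and H2-Q7 chr17:35439155-35443773, both on the plus strand. H2-K1 and H2-D1 encode the classical heavy chains K and D, and H2-Q7 encodes a nonclassical Qa-2 heavy chain. The 200 bases before the RefSeq start of these 3 genes (GRCm38.p6, the mm10 assembly) are shown because the windows share letters although H2-Q7 changed in more lines than the others. The 3 windows are chr17:34000348-34000547 on the minus strand, chr17:35262894-35263093 and chr17:35438955-35439154 on the plus strand. Capitals mark the 4 stretches of at least 10 bases that occur, on the same strand, in all 3 windows.
H2-K1: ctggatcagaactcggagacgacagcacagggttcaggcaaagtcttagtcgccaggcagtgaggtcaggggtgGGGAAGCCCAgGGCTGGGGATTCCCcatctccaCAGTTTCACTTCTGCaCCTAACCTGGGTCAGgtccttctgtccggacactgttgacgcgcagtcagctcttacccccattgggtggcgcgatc
H2-D1: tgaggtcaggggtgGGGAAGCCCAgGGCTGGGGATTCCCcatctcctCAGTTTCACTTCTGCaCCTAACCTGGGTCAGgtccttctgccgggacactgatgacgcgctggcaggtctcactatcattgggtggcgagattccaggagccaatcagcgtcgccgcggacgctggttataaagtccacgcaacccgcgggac
H2-Q7: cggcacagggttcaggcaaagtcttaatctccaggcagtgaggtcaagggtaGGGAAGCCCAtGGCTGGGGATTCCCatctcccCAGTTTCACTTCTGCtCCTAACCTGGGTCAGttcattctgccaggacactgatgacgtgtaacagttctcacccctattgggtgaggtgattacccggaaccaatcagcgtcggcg
The 4 stretches are 10 to 15 bases long, 54 bases in all, and stand in the same order in the 3 windows. Searched on both strands over the 250 bases before 32851 RefSeq starts, GGGAAGCCCA occurred in 0.119% of windows, GGCTGGGGATTCCC in 0.0152%, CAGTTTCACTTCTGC in 0.0213% and CCTAACCTGGGTCAG in 0.0152%. The stretches were taken from these windows, so that their rarity elsewhere is a description, and a shared stretch is no evidence of binding. RefSeq had a window for 9 of the 10 genes, all but Tap2.

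H2-Q7 showed the most frequent increase. It had 234 and 176 normalized counts in R342C, 143 and 187 in R377C, 141 and 136 in K365T, 132 and 147 in R377H, 127 and 110 in S354F, 111 and 113 in H455R, and 95.9 and 97.5 in R339Q, against 43.2 and 56.2 in WT ID. Every library of these 7 lines was above both WT ID libraries. The log2 fold changes ran from 0.96 ± 0.25 in R339Q (SE, limma adjusted p = 0.0085) to 2.02 ± 0.25 in R342C (adjusted p = 1.65e-05). H2-Q7 was not called in Q418R (63.7 and 51.9 normalized counts, adjusted p = 0.566) or in R448Q (65.5 and 36.0, adjusted p = 0.963), whose libraries overlapped those of WT ID. The R339Q call was lost without R339Q replicate 1 or without WT ID replicate 1, with an adjusted p of up to 0.106. Of the 100-base stretches in H2-Q7 coding transcripts, 17.2% also occur in transcripts of another gene (9.34% in H2-Q6), so reads shared with these close copies make its value uncertain. Its spread between the 11 group means, an SD of 0.71 on the log2 scale, was at the 91.6th percentile of all genes tested.

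H2-K1 and H2-D1 changed less. H2-K1 had 1261 and 1061 normalized counts in R377H, 960 and 1160 in K365T, and 979 and 1101 in R342C, against 688 and 732 in WT ID. All 6 libraries lay above the WT ID pair, and the log2 fold changes were 0.70 ± 0.13 in R377H (limma adjusted p = 0.00038), 0.57 ± 0.13 in K365T (adjusted p = 0.00204) and 0.55 ± 0.13 in R342C (adjusted p = 0.00497). In the other 6 lines H2-K1 lay between -0.14 and 0.18 and was not called. H2-D1 had 681 and 751 normalized counts in K365T and 729 and 709 in H455R, against 508 and 470 in WT ID. It rose by 0.55 ± 0.13 in both (adjusted p = 0.00338 in K365T and 0.00432 in H455R), with no overlap of libraries. In the remaining 7 lines the H2-D1 fold change lay between -0.33 in Q418R and 0.31 in S354F. K365T was the 1 line in which H2-K1, H2-D1 and H2-Q7 were all called. Of the H2-D1 100-base stretches 4.09% occur in another gene's transcripts, and of those of H2-K1 none do.

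B2m encodes the light chain that every class I heavy chain needs. It lies on chromosome 2 (chr2:122147686-122153083, plus strand), wholly inside the opposite-strand gene Patl2, and since the strand setting of the counting is not given in the sources used here, reads of the pair may not be separable. The 200 bases before its start (chr2:122147487-122147686, plus strand) are shown for comparison with the heavy chains, with capitals on TGACG (the core of the X2 box of class I promoters) and the reverse complement of CCAAT (the Y box).
B2m: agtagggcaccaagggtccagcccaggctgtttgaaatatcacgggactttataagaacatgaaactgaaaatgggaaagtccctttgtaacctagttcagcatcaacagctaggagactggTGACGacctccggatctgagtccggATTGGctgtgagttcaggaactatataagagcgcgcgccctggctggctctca
On both strands TGACG was in 17.8% and CCAAT in 33.9% of all windows. The B2m window held none of the 4 stretches shared by the heavy chain genes.

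B2m was above WT ID in every library of every mutant line, all set against the same 2 WT ID libraries. How many of all genes did so was not counted, and B2m was called in 5 of the 9 lines. It had 1320 and 1173 normalized counts in R342C, 1259 and 1095 in R448Q, 1103 and 988 in H455R, 1012 and 979 in S354F, and 924 and 1052 in K365T, against 802 and 758 in WT ID. The log2 fold changes were 0.67 ± 0.10 in R342C (limma adjusted p = 0.00018), 0.59 ± 0.10 in R448Q (adjusted p = 0.000102), 0.42 in H455R (adjusted p = 0.00571), 0.35 in S354F (adjusted p = 0.0362) and 0.34 in K365T (adjusted p = 0.0171). The calls in R342C and R448Q held under every alternative tried. That in S354F was lost when any 1 of the 4 libraries was left out (adjusted p up to 0.211) and with no filter on low values, that in K365T on the TPM scale and without K365T replicate 2 or WT ID replicate 2 (up to 0.165), and that in H455R without H455R replicate 1 or WT ID replicate 2 (up to 0.0824). The other 4 lines had fold changes of 0.21 in R377H, 0.28 in R339Q and Q418R and 0.32 in R377C, with adjusted p of 0.0504 to 0.157. Of these, R339Q, R377C and Q418R were called by DESeq2, under quantile normalization and after chromosome centring. Patl2 was called higher in no line. It averaged 1369 normalized counts in H455R and 1239 in R448Q against 2091 in WT ID, and it fell in both.

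Tap1 and Psmb9 lie head to head. Tap1, a chain of the peptide transporter, spans chr17:34187553-34197225 on the plus strand, and Psmb9, which encodes the immunoproteasome subunit LMP2, spans chr17:34181987-34187764 on the minus strand, so that the annotated genes overlap by 212 bases. The stretch between the RefSeq starts, chr17:34187331-34187555 written on the plus strand (225 bases), is shown because it lies upstream of both RefSeq starts. It lies inside the annotated GENCODE span of Psmb9. Both genes were called higher in R342C and S354F and both lower in R448Q. Tap1 alone rose in R339Q and Psmb9 alone in R377C, R377H and Q418R. Capitals mark CCAAT, next to the Psmb9 start, and TGACG, which is nearer to the Tap1 start.
Tap1-Psmb9: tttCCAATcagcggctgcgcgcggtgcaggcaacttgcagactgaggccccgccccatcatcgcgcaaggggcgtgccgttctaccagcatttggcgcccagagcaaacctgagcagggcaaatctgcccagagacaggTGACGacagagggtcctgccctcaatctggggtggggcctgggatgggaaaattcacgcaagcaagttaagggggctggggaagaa

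Tap1 had the widest range of the tested genes. It had 452 and 522 normalized counts in R342C, 468 and 403 in S354F, and 440 and 350 in R339Q, but 55.5 and 57.3 in R448Q, against 252 and 168 in WT ID. The R448Q libraries were the lowest of all 22, below both WT ID libraries, and those of the other 3 lines were above both. Tap1 fell by 1.85 ± 0.21 on the log2 scale in R448Q (limma adjusted p = 6.38e-07) and rose by 1.23 ± 0.21 in R342C (adjusted p = 0.000471), by 1.07 in S354F (adjusted p = 0.00249) and by 0.92 in R339Q (adjusted p = 0.00364). The S354F call was lost without WT ID replicate 2 (adjusted p = 0.0698), and the R339Q call without that library or R339Q replicate 1 (up to 0.0918). In the other 5 lines Tap1 lay between -0.08 in K365T and 0.51 in Q418R and was not called. Between the 11 group means the SD of Tap1 was 0.84 on the log2 scale, at the 95.5th percentile of all genes.

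Psmb9 was low in level and, like Tap1, had its lowest libraries in R448Q. It had 62.5 and 82.1 normalized counts in S354F, 56.3 and 64.4 in R377C, 61.6 and 58.0 in R342C, 38.9 and 58.7 in R377H, and 40.4 and 41.7 in Q418R, against 21.9 and 17.05 in WT ID. It rose by 1.84 ± 0.35 in S354F (limma adjusted p = 0.00182), 1.59 in R377C (adjusted p = 0.00656), 1.58 in R342C (adjusted p = 0.00322), 1.26 in R377H (adjusted p = 0.0108) and 1.05 in Q418R (adjusted p = 0.033). The R377C and R377H calls were lost without WT ID replicate 2 or the second library of the line (adjusted p up to 0.0778 and 0.137), and the Q418R call was lost when any 1 of its 4 libraries was left out (up to 0.193), under quantile normalization and with no filter on low values. In R448Q Psmb9 had 6.05 and 15.7 normalized counts, from 6 and 17 reads, both below WT ID. That decrease, -0.91 ± 0.35 (adjusted p = 0.0392), was not called by edgeR or DESeq2 on the recovered reads, with a pseudocount of 5, under quantile normalization, after chromosome centring or with no filter, nor without R448Q replicate 1 or either WT ID library (up to 0.578).

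Tap2, the other transporter chain (chr17:34203527-34216321, plus strand), was at 0.056 to 0.87 TPM, and Tap1 was at 0.677 to 7.35 TPM. Tap2 had 32.8 and 41.8 normalized counts in R342C against 16.1 and 8.02 in WT ID, a rise of 1.61 ± 0.50 (limma adjusted p = 0.026). That call was lost without either R342C library or without WT ID replicate 2 (adjusted p up to 0.239), and under quantile normalization or with no filter on low values. In the other 8 lines its fold changes ran from -0.87 in R448Q to 1.26 in R377C, none of them called at a standard error of 0.50. At 3 to 65 reads per library in these 22, the lack of a call does not show that Tap2 was unchanged.

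Tapbp, which encodes tapasin, fell rather than rose. It spans chr17:33915899-33929292 on the plus strand. It had 1524 and 1713 normalized counts in R448Q, 2108 and 2050 in R377H, 2353 and 2020 in S354F, 2070 and 2465 in K365T, 2142 and 2372 in Q418R, and 2412 and 2154 in R377C, against 3400 and 3288 in WT ID. No library of these 6 lines reached the WT ID range. The log2 fold changes were -1.05 ± 0.10 in R448Q (limma adjusted p = 3.76e-08), -0.69 in R377H (adjusted p = 2.1e-05), -0.62 in S354F (adjusted p = 0.000278), -0.57 in K365T (adjusted p = 0.000158) and Q418R (adjusted p = 0.000192), and -0.55 in R377C (adjusted p = 0.000977). All 6 calls held under every alternative tried and every left-out library. R339Q (3199 and 2959 normalized counts), R342C (3259 and 3150) and H455R (3935 and 3594) were not called, with log2 fold changes of -0.12, -0.06 and 0.17. Tapbp overlaps Gm19412 on the opposite strand and the end of Zbtb22 on the same strand. Gm19412, at 20.2 to 71.7 normalized counts against 1524 to 3935 for Tapbp, fell in 5 of the 10 comparisons with WT ID, and Zbtb22, at 1291 to 1718, fell in 2.

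H2-T23, which encodes the Qa-1 heavy chain that presents leader peptides to NK cell receptors, and Psmb8, which encodes the immunoproteasome subunit LMP7, were near the detection limit. H2-T23 had 0 to 7 reads per library and 0 in 4 of 24. Psmb8 had 0 to 12 reads and 0 in 4 of 24, among them both WT untreated libraries. Their mean normalized counts were 2.62 and 3.59, so differences between groups were not detectable at this depth. The constitutive counterpart of Psmb8, Psmb5, was at 116 to 211 TPM in the same libraries, and Psmb8 amounted to at most 0.115% of it. Psmb9 amounted to 0.0343% to 0.614% of its counterpart Psmb6.

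The wild-type line without transgene expression was compared with the same line expressing it. In WT IAA cells 3 of the 8 genes were called, 1 higher and 2 lower, where 9.96% of all genes were higher, 10.7% lower and 20.7% called in either direction. Tap1 had 328 and 418.4 normalized counts in WT IAA against 252 and 168 in WT ID, a rise of 0.84 ± 0.21 on the log2 scale (limma adjusted p = 0.00809). B2m had 588 and 566 in WT IAA against 802 and 758 in WT ID, and it fell by 0.43 ± 0.10 (adjusted p = 0.00578). Tapbp had 2429 and 2614 in WT IAA against 3400 and 3288 in WT ID, and it fell by 0.41 ± 0.10 (adjusted p = 0.00501). The groups overlapped in none of the 8 genes, called or not, so the lack of overlap does not set these 3 apart. Each call was lost without at least 1 library: Tap1 without WT IAA replicate 2 or WT ID replicate 2, B2m without WT IAA replicate 2 or WT ID replicate 1, and Tapbp without WT IAA replicate 1. B2m was thus lower than WT ID when no transgene was expressed, and higher in 5 of the mutant lines.

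Untreated cells, deposited in a separately scaled table, were compared by TPM ratios on a log2(TPM + 0.1) scale, beside an edgeR test on the recovered reads of all 24 libraries. The median of all genes above 0.5 TPM was shifted by 0.19 for WT ID over untreated cells and by 0.20 for WT IAA over untreated cells, and the ratios are given relative to it. Tap1 had 4.57 and 5.76 TPM in WT IAA and 3.59 and 2.23 TPM in WT ID, against 1.79 and 1.40 TPM in untreated cells. Its ratio over untreated cells was 1.44 above the median gene in WT IAA and 0.64 above it in WT ID, with no overlap. Tap2 was lower, with 0.361 and 0.341 TPM in WT IAA and 0.331 and 0.154 TPM in WT ID, against 0.775 and 0.538 TPM in untreated cells, a ratio of -0.94 relative to the median gene in WT IAA and -1.33 in WT ID. H2-Q7 had 1.22 and 1.21 TPM in WT IAA and 0.788 and 0.954 TPM in WT ID, against 0.593 and 0.515 TPM in untreated cells, 0.81 above the median gene in WT IAA and 0.38 in WT ID. H2-K1 had 15.2 and 13.99 TPM in WT IAA, against 21.99 and 18.2 TPM in untreated cells, with no overlap (-0.66 relative to the median gene, edgeR adjusted p = 0.000464). B2m had 52.2 and 49.6 TPM in WT IAA and 72.7 and 63.8 TPM in WT ID, against 54.6 and 43.7 TPM in untreated cells, so that WT IAA overlapped untreated cells and WT ID lay above them. Before the shift was removed, 1 of the 7 genes above 0.5 TPM (Tap2) was at least 2-fold apart with no overlap for WT ID (14.6% of all genes were) and 2 of 8 (Tap1 and H2-Q7) for WT IAA (19.3% of all genes). After it was removed, Tap2 stayed past 2-fold for WT ID and Tap1 for WT IAA, while H2-Q7 did not. The share of all genes past 2-fold was not computed after this step. At an adjusted p under 0.05 edgeR called 3 genes for WT IAA (Tap1 and H2-Q7 higher, H2-K1 lower), where 45.7% of all genes were called. It called 4 for WT ID (B2m, Tap1 and Tapbp higher, Tap2 lower), where 40.5% were.

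Pairs of lines with nearby substitutions, or with different substitutions of the same residue, were compared directly. R377C and R377H differed in 1 of the 8 genes, where 19% of all genes were called (7.88% higher and 11.1% lower in R377C). H2-K1 had 754 and 863 normalized counts in R377C against 1261 and 1061 in R377H, a difference of -0.52 ± 0.13 (limma adjusted p = 0.00709) that was lost without R377C replicate 1 or R377H replicate 1 (adjusted p up to 0.102). For the other 7 genes the difference ranged from 0.00 to 0.71 and was not called.

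R448Q and H455R differed in 5 of 8, all lower in R448Q, where 44.6% of all genes were called (21.9% higher and 22.7% lower). Tap1 had 55.5 and 57.3 normalized counts in R448Q against 215 and 276 in H455R (-2.09 ± 0.21, limma adjusted p = 1.35e-07), and Tapbp had 1524 and 1713 in R448Q against 3935 and 3594 in H455R (-1.22 ± 0.10, adjusted p = 5.94e-09). Neither pair overlapped. Psmb9 was lower by 1.64 ± 0.35 on that scale (6.05 and 15.7 normalized counts in R448Q against 27.4 and 39.1 in H455R, adjusted p = 0.000685), as were H2-Q7 (-1.19 ± 0.25, adjusted p = 0.000562) and H2-D1 (-0.71 ± 0.13, adjusted p = 0.000191). B2m, at 1259 and 1095 in R448Q against 1103 and 988 in H455R, overlapped and was not called. All 5 calls held under every alternative and left-out library.

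R339Q and R342C differed in 4 of 8, all lower in R339Q, where 26.7% of all genes were called (15.8% higher and 10.9% lower). H2-K1 had 649 and 643 normalized counts in R339Q against 979 and 1101 in R342C (-0.68 ± 0.13, limma adjusted p = 0.000807), and this call held throughout. H2-Q7 (-1.06 ± 0.25, adjusted p = 0.00372), B2m (-0.39 ± 0.10, adjusted p = 0.00935) and Tap2 (-1.91 ± 0.50, adjusted p = 0.00885) were also lower in R339Q. Each of these 3 was lost when 1 library was left out: H2-Q7 without R342C replicate 1 (adjusted p = 0.0592), B2m without R339Q replicate 2 or R342C replicate 1 (up to 0.157), and Tap2 without R339Q replicate 2 or R342C replicate 2 (up to 0.0819).

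S354F and K365T differed in 4 of 8, where 28.2% of all genes were called (12.2% higher and 16% lower). The transporter and LMP2 genes were higher in S354F: Tap1 had 468 and 403 normalized counts in S354F against 165 and 232 in K365T (1.15 ± 0.21, limma adjusted p = 0.000477), Psmb9 had 62.5 and 82.1 in S354F against 22.5 and 28.4 in K365T (1.47 ± 0.35, adjusted p = 0.00373), and Tap2 had 17.2 and 27.0 in S354F against 2.93 and 11.3 in K365T (1.70 ± 0.50, adjusted p = 0.0166). H2-K1 was lower in S354F, at 921 and 669 against 960 and 1160 in K365T (-0.43 ± 0.13, adjusted p = 0.0178). The libraries of the lines did not overlap for any of the 4. The Tap2 call was lost without S354F replicate 2 or K365T replicate 1 (adjusted p up to 0.24), with DESeq2 and with no filter on low values, and the H2-K1 call without S354F replicate 2 or K365T replicate 2 (up to 0.317).

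**Figure D3:**
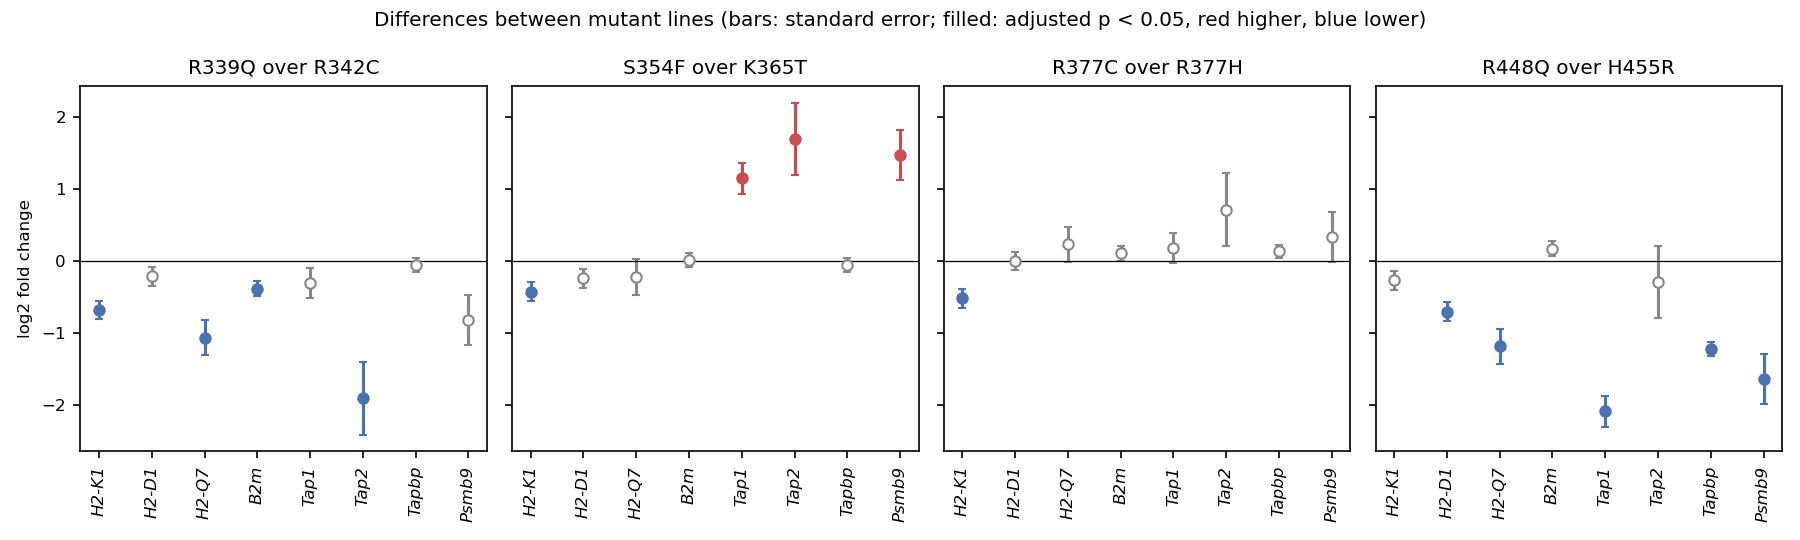
Log2 fold change (vertical axis) of the 8 tested genes between pairs of mutant lines, the first-named line over the second, with the standard error from limma. Filled points passed an adjusted p under 0.05. Tap1, Tap2 and Psmb9 are higher in S354F than in K365T, and 5 genes are lower in R448Q than in H455R.

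Over the 22 libraries of the common table, Tap1 and Psmb9 had a Pearson correlation of 0.82 on the log2 scale, the highest of the 28 pairs among the 8 genes, followed by Tap2 with Psmb9 (0.74), H2-K1 with H2-Q7 (0.68) and Tap1 with Tap2 (0.66). These are descriptions only, since the libraries come in 11 groups of 2 that share a line and a treatment. B2m was at -0.20 with Tap1 and 0.02 with Tap2. Low values were not particular to B2m: H2-D1 was at 0.25 with Tap1 and -0.08 with Tap2, and H2-K1 at 0.15 and 0.20. H2-Q7 was higher, at 0.49 with Tap1 and 0.41 with Tap2. R448Q had the 2 lowest Tap1 libraries but 2 of the 5 highest B2m libraries, while WT IAA had Tap1 libraries above WT ID with the lowest B2m of the 22. Among 12448 genes with a mean of at least 50 normalized counts, those most like Tap1 were Hmcn2 (0.96), Podn (0.96) and Eng (0.96), none of them on chromosome 17. Those most like the other genes were Nwd1 for Psmb9 (0.88), Dusp7 for Tap2 (0.82), Tdrd1 for B2m (0.93), Slc22a5 for H2-K1 (0.93), Parm1 for H2-D1 (0.89), Camta1 for H2-Q7 (0.89), and Sema3b and Itga5 for Tapbp (0.88 each). The 3 genes most like H2-K1 (Slc22a5, Srr and Ttyh2) all lie on chromosome 11. That chromosome was shifted as a whole in R377H (0.54) and K365T (0.38), and its part in these correlations was not tested.

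**Figure D4:**
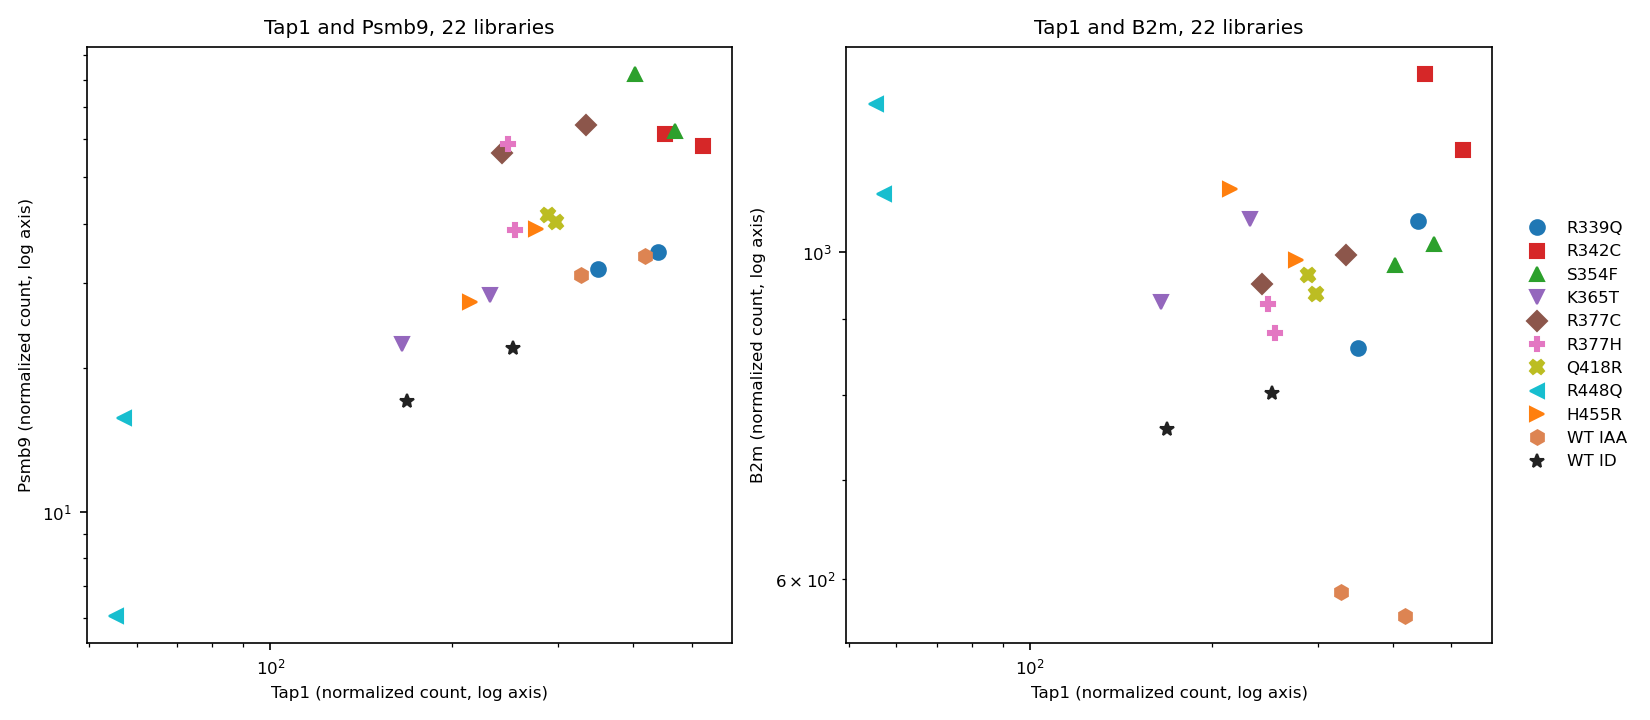
Normalized counts of Psmb9 (left) and B2m (right) against Tap1 in the 22 libraries of the common table, all axes logarithmic, with 1 symbol per group and 2 points each. Psmb9 is low where Tap1 is low (R448Q) and high where it is high (R342C, S354F), whereas B2m is high in both R448Q and R342C.

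Per length, B2m RNA exceeded the summed RNA of the heavy chain genes H2-K1, H2-D1, H2-Q7 and H2-T23 in every library. Other class I genes were left out of this sum, among them H2-M5 and H2-Bl, at means of 5202 and 258 normalized counts. B2m was at 43.7 to 129 TPM, and H2-K1, H2-D1, H2-Q7 and H2-T23 summed to 26.9 to 51.2 TPM. The ratio of B2m to that sum ran from 1.31 in an untreated library to 3.57 in an R448Q library, with a median of 2.10. H2-K1 made up 44.5% to 63.4% of that partial sum. The orders of the levels were gene by gene different: R342C had the highest group mean for H2-K1, H2-Q7, B2m, Tap1 and Tap2 (28.5, 3.90, 117, 7.14 and 0.79 TPM), H455R for H2-D1 and Tapbp (21.4 and 79.4 TPM), and S354F for Psmb9 (1.503 TPM). The lowest group means were in R448Q for Tap1, Tap2, Tapbp and Psmb9 (0.688, 0.103, 29.8 and 0.199 TPM), in untreated cells for H2-Q7 and B2m (0.554 and 49.1 TPM), in WT IAA for H2-K1 (14.6 TPM) and in Q418R for H2-D1 (10.7 TPM). At the top of the order the highest group did not overlap the next for H2-D1, Tapbp, B2m and Tap1. For Psmb9 S354F overlapped R342C and R377C, for Tap2 R342C overlapped untreated cells and R377C, for H2-K1 R342C overlapped R377H, and for H2-Q7 R342C overlapped R377C.

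The other steps of the pathway were examined with lists of related genes. Of 11 other class I genes tested, 39 of 110 gene and comparison combinations with WT ID (9 mutant lines and WT IAA) were higher and 16 lower. Of all genes in the same 10 comparisons, 12.1% of combinations were higher and 11.4% lower. H2-Q4, a Qa region heavy chain gene, rose in all 9 mutant lines, by 1.07 in R339Q (limma adjusted p = 0.0139) to 1.93 in R342C (adjusted p = 0.000181), and was 0.61 above WT ID in WT IAA without a call. Hfe, a class I-like regulator of iron uptake on chromosome 13, rose in 7 comparisons, up to 1.77 in R342C. H2-Q10, which encodes a secreted class I chain, rose in 7, up to 1.38 in R339Q. H2-Bl fell in 6, down to -1.68 in K365T, and rose in H455R by 0.63. H2-Q4 and H2-Q10 are close relatives of H2-Q7, and reads shared between such copies make their values uncertain.

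Of 23 other peptide processing and loading genes 42 of 230 combinations were higher (all genes: 12.1%) and 16 lower (all genes: 11.4%). The named ones were the aminopeptidase gene Blmh (higher in 6, up to 0.70 in K365T), the proteasome activator gene Psme4 (higher in 5, lower in 1), the glucosyltransferase gene Uggt1 (higher in 5) and the translocon gene Sec61a1 (lower in 5, down to -0.65 in Q418R). Blmh and Psme4 lie on chromosome 11, which was shifted as a whole in K365T (0.38) and R377H (0.54). Uggt1 lies on chromosome 1 and Sec61a1 on chromosome 6. After each library was centred on the median of each chromosome, the list's higher combinations fell to 25, and Uggt1 lost its 5 calls. The peptide trimming gene Erap1, chosen after its values were seen, averaged 307 normalized counts in H455R against 175 in WT ID (0.81, limma adjusted p = 0.000936).

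Constitutive proteasome genes were higher in some groups and lower in R342C. Of the 32 genes, 25 were higher in R448Q (22.8% of all genes were), 23 in WT IAA (9.96% of all genes, 1 gene lower), 20 in K365T (17.7% of all genes) and 16 in R339Q (11.8% of all genes, 1 gene lower), while 22 were lower in R342C (13.3% of all genes). In R377H 10 were higher (14.4% of all genes), in Q418R 10 (11.2% of all genes, 1 gene lower) and in H455R 3 (12.6% of all genes, 1 gene lower). In S354F and R377C limma called 0 of 32, with 0 at an unadjusted p under 0.05, and edgeR and DESeq2 also called 0. The list's medians were 0.33 in R448Q, 0.27 in WT IAA and -0.27 in R342C. They did not run counter to the class I and processing genes throughout: in K365T, where 4 of those 8 rose, the proteasome median was 0.23, and in S354F, where 4 of 8 also rose, it was 0.01. On the TPM scale the median of all genes in R448Q shifted by -0.17. There the higher proteasome genes in R448Q numbered 14 (1 lower), where 2734 of all 18713 genes were higher. The lower ones in R342C numbered 11, where 963 of 18713 genes were lower, and the directions stayed the same. Centring on chromosomes left 27 higher in R448Q (3855 of all 18234 genes) and 22 lower in R342C (2460 of 18234).

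**Figure D5:**
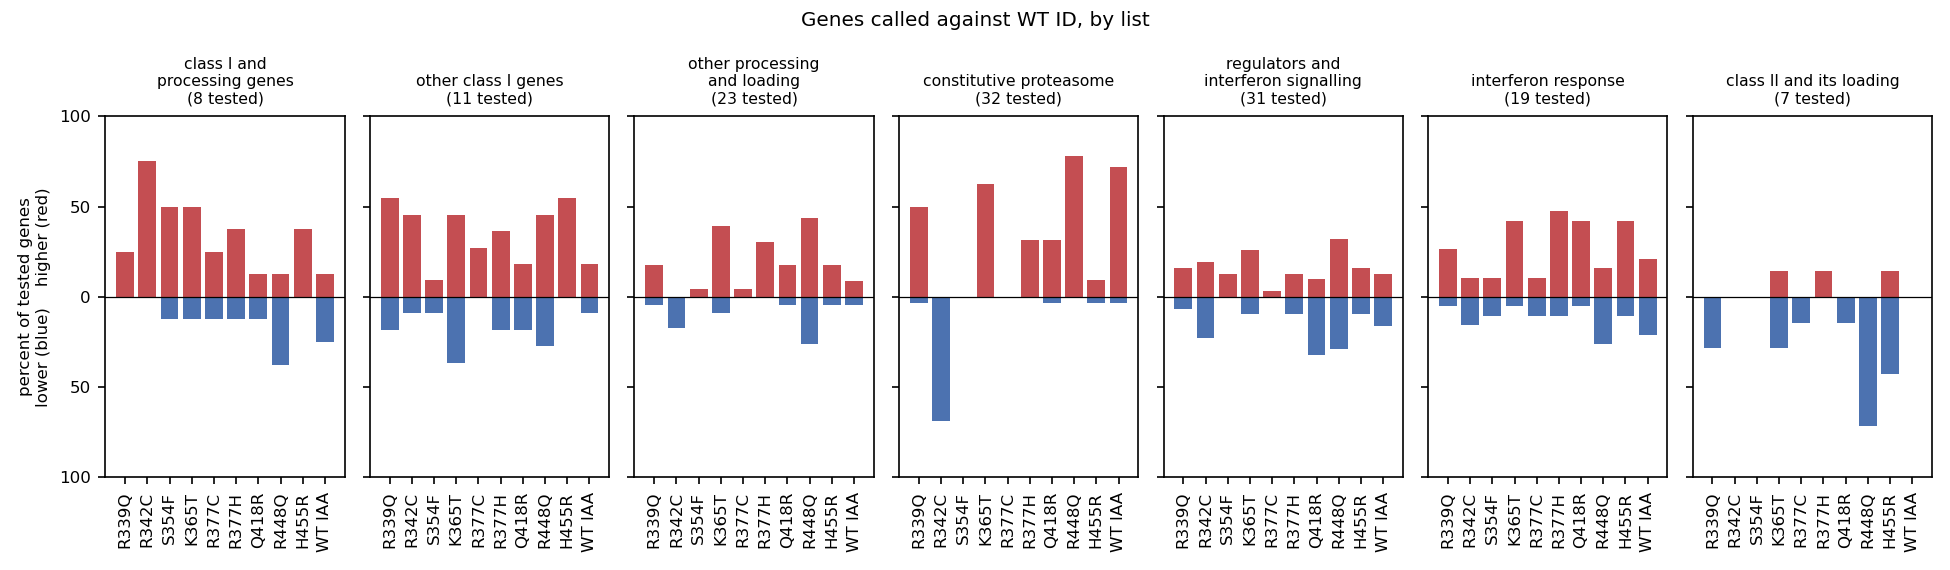
Percent of the tested genes of each list that were higher (red, upward) or lower (blue, downward) than WT ID at an adjusted p under 0.05, for 9 mutant lines and WT IAA. In R342C 6 of 8 class I and processing genes are higher while 22 of 32 constitutive proteasome genes are lower.

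Among 31 regulators of class I transcription and interferon signalling 50 of 310 combinations were higher and 42 lower, against 12.1% and 11.4% of combinations over all genes. Nlrc5, the class I transactivator, singled out for that role after its values were seen, was low at 4.31 to 32.6 normalized counts. It averaged 25.7 in Q418R and 23.5 in H455R against 6.53 in WT ID, with log2 fold changes of 1.80 (limma adjusted p = 0.00366) and 1.72 (adjusted p = 0.00557), and it also rose in R342C and R339Q. Of these 4 lines, R342C had 6 of the 8 class I and processing genes higher, H455R 3, R339Q 2 and Q418R 1. A link of these genes to Nlrc5 was not tested. Irf8 rose by 1.96 in R342C (adjusted p = 0.00262) and fell by 1.92 in R448Q (adjusted p = 0.000842). Irf1, likewise singled out afterwards, averaged 612 normalized counts in R448Q against 997 in WT ID (-0.70, adjusted p = 7.99e-06). Jak1 rose in 7 comparisons, up to 0.41 in WT IAA, and Irf2 rose in 5 and fell in 1.

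Interferon response genes gave 51 of 190 combinations higher (all genes: 12.1%) and 23 lower (all genes: 11.4%) over 19 genes. Igtp, an interferon-induced GTPase gene, rose in 9 of 10 comparisons, by up to 2.75 in R377H, and was not called in R448Q (0.64). Eif2ak2, the antiviral kinase gene PKR, rose in 8 of the 9 mutant lines, all but H455R, by up to 1.17 in K365T, and fell in WT IAA by 0.30. Ddx58, the RNA sensor gene RIG-I, fell in 7, down to -1.48 in H455R. Ifi35 rose in 6, up to 1.43 in R377H. Igtp and Ifi35 lie on chromosome 11, which was shifted as a whole by 0.54 in R377H.

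Class II genes and genes of their loading, which serve presentation of extracellular peptides, were lower in 14 of 70 combinations (all genes: 11.4%) and higher in 3 (all genes: 12.1%). Of these, H2-Eb1 and H2-Ab1 lie on chromosome 17, but Cd74 lies on chromosome 18. R448Q gave 5 of the 14, where 23.1% of all genes were lower. H2-Eb1, the E beta chain gene, fell in 5 lines, with log2 fold changes of -2.72 in R448Q (limma adjusted p = 8.73e-11) and -2.27 in H455R (adjusted p = 8.43e-09). H2-Ab1 fell in 3, down to -2.12 in R448Q. Of 37 genes of other function in the MHC region of chromosome 17, 54 of 370 combinations were lower (all genes: 11.4%) and 22 higher (all genes: 12.1%). Pbx2, a homeodomain gene of the region, fell in all 9 mutant lines, down to -0.66 in R448Q. The whole of chromosome 17, 833 genes tested, kept a median between -0.07 and 0.04 in the same comparisons.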

How the data were processed

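Gene tables of 24 total RNA-seq libraries were used as deposited by the authors. Normalized counts and TPM each come in a table of 22 libraries and in another of the 2 untreated ones. The authors deposited TPM as a length-scaled share of each library, and how gene length was set is not given in the sources used. Per the submitters' processing notes, Trim Galore, STAR, DESeq2 and mm10 were used. Their versions, the read counter, its strand setting and the gene annotation are not given in the sources used. The normalized count signal the authors deposited is whole reads divided by 1 factor per library: 100% of values in each library were whole multiples of a step, within 0.001, which gave the reads back. In R448Q replicate 1 and WT ID replicate 2 the step is close to 1, which makes this check weaker there. The untreated table was scaled separately, so TPM ratios were used across tables (0.1 TPM added, mean of 0.5 TPM or more in either group). The tables held 0 columns from outside the series. Depth was 27.8 to 77.1 M reads per library.

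A pseudocount of 1 was added to normalized counts before taking log2, and the 18713 genes averaging 10 or more were kept. Group means were fitted to 22 libraries with limma 3.58.1 in R 4.3.3 (degrees of freedom: 11 residual, 8.13 prior). The p-values are two-sided and were adjusted by Benjamini-Hochberg over all 18713 genes within each of 14 comparisons, and ± after a fold change is its standard error. The fit was tested on simulated data. Alternatives were edgeR 4.0.16 and DESeq2 1.42.0 on the recovered reads, TPM, quantile normalization, centring on chromosome medians, a pseudocount of 5, no filter, a replicate block and leaving out each library. On recovered reads edgeR called 1618 to 8738 genes per comparison. The 10 genes and all lists were chosen with earlier results of these data known. Named list genes are up to 4 of each list called in most comparisons with WT ID, ties going to the larger mean absolute log2 fold change. Similar genes are the 3 with the highest Pearson r among genes averaging at least 50, of which 1 or more are named. H2-Q8, H2-Q9, H2-T9 and Hsd17b8 were listed but not analysed here. Some genes that this rule names are not reported here. Coordinates come from GENCODE M21 and promoter windows from RefSeq (GRCm38.p6). Stretches of 100 bases in GENCODE M21 coding transcripts were searched in all other genes' transcripts.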

Additional observations from a re-analysis of the deposited data

Results flagged for a closer look

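Direct tests between mutant lines found 14 differences in class I and processing genes (limma, adjusted p under 0.05 over all genes), and each has its level in the account of the pair. Of all genes, 19% were called between R377C and R377H and 26.7% between R339Q and R342C. Between S354F and K365T 28.2% were called, and between R448Q and H455R 44.6%. R377C was lower than R377H in H2-K1 (log2 fold change -0.52). R339Q was lower than R342C in H2-K1 (-0.68), H2-Q7 (-1.06), B2m (-0.39) and Tap2 (-1.91). S354F was lower than K365T in H2-K1 (-0.43) but higher in Tap1 (1.15), Tap2 (1.70) and Psmb9 (1.47). R448Q was lower than H455R in H2-D1 (-0.71), H2-Q7 (-1.19), Tap1 (-2.09), Tapbp (-1.22) and Psmb9 (-1.64). What the lines differ in besides the substitution was not tested.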

How the results depend on the processing

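With 2 libraries per group, single libraries decide many calls. Leaving out 1 library, the number of genes called against WT ID ran from 1 to 2 in WT IAA, 0 to 3 in R339Q, 5 to 6 in R342C, 3 to 4 in S354F, 4 to 5 in K365T, 2 to 3 in R377C, 3 to 4 in R377H, 1 to 2 in Q418R, 3 to 4 in R448Q and 2 to 3 in H455R. Between lines it ran from 0 to 1 for R377C against R377H, 2 to 4 for R339Q against R342C and for S354F against K365T, and stayed at 5 for R448Q against H455R. Against untreated cells the genes past 2-fold ran from 1 to 3 in WT IAA and stayed at 1 in WT ID. With 1 TPM added they numbered 1 in WT IAA and 0 in WT ID, and edgeR on 24 libraries, which counts genes by adjusted p and not by fold, called 3 in WT IAA and 4 in WT ID. With no filter on low values Q418R had 1 call. The replicate numbers did not pair the samples (55 group pairs, r -0.25 to 0.38, median 0.02), and a replicate block left 3 calls in Q418R, where B2m was added (0.28, limma adjusted p = 0.046), and changed no other call of these genes. Centring on chromosome medians turned 8 results of list genes: Uggt1 to -0.059 in R448Q against WT ID and -0.25 against H455R, Nanog to 0.36 in Q418R, Tfcp2l1 to -0.0037 in K365T and -0.0066 in R448Q, Cd68 to -0.45 in R377H, and Nes to -0.044 in R448Q against WT ID and -0.42 against H455R. On the TPM scale the median gene moved by -0.17 in R448Q against WT ID, -0.19 in R448Q against H455R, 0.11 in R377C against R377H and 0.10 in S354F against K365T. The share of calls that were higher became 70.2% on TPM, against 42.9% on normalized counts, in R342C, 42.7% against 55.4% in K365T, 40.4% against 57.4% in R377H, 26.3% against 44.6% in Q418R and 31.2% against 49.7% in R448Q. Between lines it became 64.3% against 41.5% for R377C and R377H, 42.6% against 59.2% for R339Q and R342C, 60.5% against 43.4% for S354F and K365T, and 27.0% against 49.0% for R448Q and H455R. The cause of these changes was not tested.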

Other observations

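Marker genes of other cell types, listed to check the cultures, also differed between groups. By limma, with all values log2 fold changes against WT ID, Tek, an endothelial receptor gene, was higher than WT ID in all 10 comparisons, by 1.27 in S354F to 2.80 in R339Q. Cdh5, which encodes an endothelial cadherin, was higher in 7, by up to 3.24 in R339Q, at a mean of 16.5 normalized counts. Kdr was higher in 6, and Pecam1 was higher in 4 and lower in 1 (-0.40 in H455R). Of the 5 endothelial markers tested, 2 were lower in H455R, and 1 was lower in each of WT IAA, Q418R and R448Q. Among primitive endoderm genes Lamb1 was higher in 8 comparisons (up to 1.66 in R339Q) and Gata4 in 7 (up to 1.29 in S354F), while Dab2 was higher in 3 and lower in 3 (-2.42 in R448Q) and Gata6 higher in 2 and lower in 1 (-1.10 in R448Q). The naive pluripotency genes Nanog and Zfp42 were higher in 7 and 6, by up to 0.66 in K365T and 0.90 in R448Q, and Dppa5a was lower in 3, down to -0.45 in R448Q. Zfp42 lies on chromosome 8, shifted by 0.45 as a whole in R448Q, and after centring on chromosomes its change there was 0.45. The fibroblast genes Col1a1 and Thy1 were higher in 8 and 7, up to 1.45 in WT IAA and 1.92 in H455R, and Col1a1 was lower in R448Q (-0.71), while of the leukocyte genes Cd3e was higher in 3 and lower in 2, and Cd68 was lower in 4, down to -1.09 in R448Q.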
